A study of Homo sapiens with 10 samples.

Results

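The 10 genes described here encode enzymes of glycolysis in the order of the pathway, GPI, PFKP, ALDOA, TPI1, GAPDH, PGK1, PGAM1, ENO1 and PKM, with LDHA at its outlet. They were taken by symbol, and all 10 were found among the 39472 gene symbols of the count files. The counts come from enhanced crosslinking and immunoprecipitation (eCLIP), which recovers and sequences RNA fragments joined by ultraviolet light to a protein, here with an anti-FLAG antibody. The cells were HEK 293T, a widely used line of human embryonic kidney origin. The sample labels do not name the tagged protein. The series title names eIF4A, the RNA helicase of the translation initiation complex eIF4F. The groups were cells given 20 nM silvestrol for 1 h (3 libraries), cells given 20 nM CR-1-31-B for 1 h (3 libraries), cells given the vehicle, labelled DMSO, for 1 h (3 libraries), and 1 input library made with no antibody, whose treatment the labels do not give. All were crosslinked at 254 nm with 400 mJ/cm2. With 1 input library used here, and none tied to a treatment, more binding and more of an mRNA cannot be told apart in the levels. Nothing in the labels says that the replicates came from separate cultures, so p-values measure the spread between these libraries, which may be technical.

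Glycolysis turns glucose into pyruvate in the cytosol, and LDHA, a subunit of lactate dehydrogenase, reduces pyruvate to lactate. Cultured lines of this kind express the pathway at a high level. eIF4A unwinds the 5' leader, the untranslated stretch ahead of the coding sequence (CDS), so that a ribosomal subunit can load and scan. Silvestrol and CR-1-31-B are rocaglates, plant-derived or synthetic compounds known to hold eIF4A on RNA, with a preference for stretches of purines (A and G).

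Because of that preference, the longest unbroken purine run was located in the leader of each gene, in 1 transcript per gene of GENCODE release 29, picked as a principal transcript with the best support level and then the shortest leader. All 10 genes had such a transcript. Windows of 30 bases are shown for the pair of genes with a called rise of the leader over the CDS (ENO1 and GAPDH), for PGAM1, with the highest fitted difference of that kind, for TPI1 and PFKP, whose leaders were low with silvestrol, and for ALDOA, with the longest run of the 10 in these transcripts. Each reads 5' to 3' on the transcript with the purine run in capitals.
ENO1: gtacccggagcacGGAGAtctcgccggctt
GAPDH: gtgtgtgtcggccGGGGccactaggcgctc
PGAM1: tccagagcgagtGGAAAGAtttgggcgaga
TPI1: gcAGAcactgaccttcagcgcctcggctcc
PFKP: ggcgcgcgcgggcAGGGtccccattgcctg
ALDOA: agggagtcAAGGGAGGAGGGAGAttagaga

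The run was 5 bases in the 116-base leader of ENO1 on chromosome 1, and 89.9% of 2776 leaders within 20% of that length held one at least as long. It was 4 bases in the 79-base leader of GAPDH on chromosome 12 (94.5% of 2113 leaders of like length) and 3 bases in the 36-base leader of TPI1, also on chromosome 12 (94% of 883). The ALDOA run on chromosome 16 was 15 bases in a leader of 253, and 9.38% of 3229 like leaders matched it. PKM held a run of 13 bases, PGK1 9, PGAM1 7, PFKP and LDHA 4 each, and GPI 2. The median over the 10 genes was 4.5 bases, against 8 over 18689 genes. Leaders of all those genes had a median length of 165 bases, and those of ENO1, GAPDH, TPI1, GPI, PFKP and PGAM1 were shorter. ENO1 and GAPDH thus had short runs in these transcripts. Other principal transcripts held longer runs for LDHA (11 bases), ENO1 (8) and GPI (5). The answer depends on the transcript, because another principal GAPDH transcript has a leader of 666 bases with the run shown next, which 5.13% of 877 like leaders matched in length.
GAPDH, longer leader: ctttGAAAGAAAGAAAGGGGAGGGGGcagg

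The deposited counts do not say which transcript a leader read came from, nor which annotation set the leader's bounds.

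The libraries held 858733 to 1804732 counts with the antibody and 2193699 in the input. The 5' leader took 36.2% to 40.3% of all mRNA counts in the silvestrol libraries, 29% to 41.4% in the CR-1-31-B libraries, 25.9% to 30% in the DMSO libraries and 12.9% in the input. CR-1-31-B library 3, at 29%, lay within the DMSO range, so the main results with CR-1-31-B are given with and without it, a choice made after seeing the data for the counts of groups that do not overlap. All 6 genes listed as known in HEK 293T cells (VIM, KRT8, KRT18, NEFL, NEFM and PAX2) were detected, with sums over the antibody libraries from 90 to 1900 counts. The 10 genes together held 0.27% ± 0.08 of all counts in silvestrol libraries, 0.27% ± 0.06 in CR-1-31-B libraries, 0.33% ± 0.07 in DMSO libraries (SD, n = 3 each) and 0.223% in the input. Of 5 genes of other cell types, INS had 0 counts and ALB, HBB, PTPRC and CD3E at most 4 in any antibody library.

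In DMSO cells, 4 of the 5 leaders that could be judged were recovered with the antibody well above their level in the input, while the coding sequences were not. With 1 input library there is no test, and a leader is said to be enriched when every DMSO library lies at least 2-fold above the input in CPM, the count scaled to the library total, for rows with 10 or more input counts. The 4 enriched leaders were those of ALDOA, GAPDH, ENO1 and PKM, and in the whole series the rule held for 40.9% of 3980 leaders. None of 9 member CDS met the rule, against 4.26% of 9937.

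The ALDOA leader, of the aldolase that splits fructose bisphosphate, had 224, 154 and 142 CPM in the DMSO libraries and 31.5 CPM in the input, whose 95% exact Poisson interval ran from 24.5 to 39.8. The ENO1 leader had 282, 163 and 147 CPM in the DMSO libraries and 38.3 CPM in the input (30.5 to 47.4). The PKM leader, of the pyruvate kinase expressed in most proliferating cells, had 131, 115 and 63.6 CPM in the DMSO libraries and 14.6 CPM in the input (9.98 to 20.6). All of these were several-fold above the input in each library. The GAPDH leader stood closest to the rule among the enriched leaders, with 146, 103 and 97.5 CPM in the DMSO libraries and 37.4 CPM in the input (29.7 to 46.4).

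The TPI1 leader had 10.3, 14.9 and 9.54 CPM in the DMSO libraries and 5.47 CPM in the input (2.83 to 9.56), a mean ratio of 2.11 that did not reach 2 in every library. The leaders of GPI, PFKP, PGK1, PGAM1 and LDHA had 2 to 9 input counts and were not judged. Their mean ratios to the input ran from 8.46 for PGAM1 to 26.2 for GPI. At the upper bound of the input's Poisson interval they ran from 4.45 for PFKP to 9.98 for LDHA. A low input count itself makes for a high ratio, so these leaders are not counted as enriched or as not enriched. Over the member leaders with enough input counts, the median ratio of the DMSO mean to the input was 5.15, against 2.47 over all 3980 leaders. For the CDS it was 1.21, against 0.965 over all 9937. Non-coding RNA took 39.5% of the input counts and 13.3% to 17.3% of the DMSO counts, which moves every ratio. With CPM of mRNA counts alone the medians were 3.68 against 1.78 for leaders and 0.868 against 0.692 for CDS, and 3 leaders met the rule, with GAPDH at a mean ratio of 2.21 below 2 in at least 1 library.

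**Figure D1:**
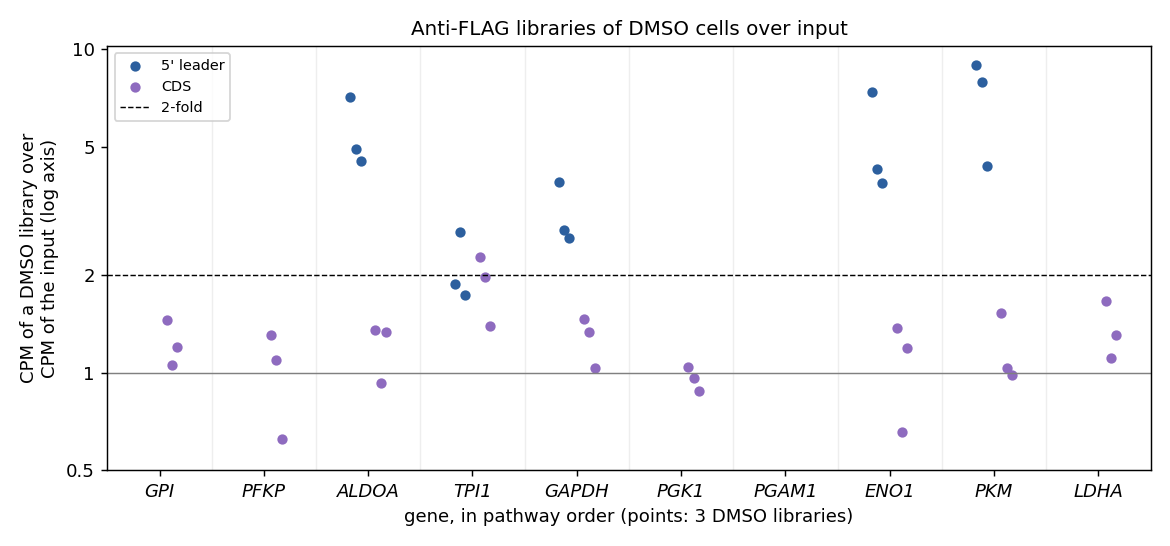
Ratio of the CPM in each DMSO library to the CPM in the input library (log axis) for the leader and CDS of each gene, shown only where the input held 10 or more counts; the dashed line marks 2-fold. The leaders of ALDOA, GAPDH, ENO1 and PKM lie above the line in each of the 3 libraries, while the CDS lie below it apart from 1 library of TPI1.

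With silvestrol, the leader levels of ENO1, GAPDH and PGAM1 were higher than in every DMSO library while their CDS levels were lower on average, PGAM1 having few CDS counts. TPI1, PFKP and GPI went the other way, with lower leader levels in every silvestrol library. The test was edgeR's quasi-likelihood test on the counts of the 9 antibody libraries, with Benjamini-Hochberg adjustment over all 24713 features tested, a feature being a gene symbol and a class of sequence. A feature with an adjusted p under 0.05 is said to be called. Of 29 member features tested (10 leaders, 10 CDS and 9 3'UTRs, PFKP's having too few counts), edgeR called 0 with silvestrol, 7 having an unadjusted p under 0.05. Of all 22247 mRNA features, 0.279% were called, and of all 7122 leaders 0.857% were called higher. DESeq2 called 2 member features, where it called 1.25% of all 24713 features, and limma voom called 0, where it called 0.299%. With the replicate number as a block edgeR called 2 member features and 1.28% of all features.

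ENO1 is enolase, which makes phosphoenolpyruvate. Its leader had 706, 361 and 440 CPM in silvestrol libraries 1 to 3 (here and below CPM use library sizes scaled by TMM) and 296, 186 and 159 CPM in DMSO libraries 1 to 3. All silvestrol libraries lay above all DMSO libraries. The log2 fold change was 1.23 (SE 0.39), which edgeR did not call (adjusted p = 0.240). With the block it was called (1.24, adjusted p = 0.0100), as it was by DESeq2 (1.26, adjusted p = 0.0433).

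GAPDH, the dehydrogenase that oxidises glyceraldehyde 3-phosphate, had 368, 198 and 285 leader CPM in silvestrol libraries and 153, 118 and 105 CPM in DMSO libraries. The groups did not overlap. The log2 fold change of 1.18 (SE 0.35) was not called by edgeR (adjusted p = 0.205), and was called with the block (1.16, adjusted p = 0.0251) and by DESeq2 (1.21, adjusted p = 0.0241).

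PGAM1, the phosphoglycerate mutase, was the other member whose leader lay above every DMSO library, with 59.6, 52.3 and 53.5 CPM in silvestrol libraries and 47, 43.5 and 22.9 CPM in DMSO libraries. That makes 3 of 10 leaders higher without overlap, where 19% of all leaders did so. In the opposite direction, the leaders of TPI1, PFKP and GPI were lower without overlap, 3 of 10, where 2.16% of all leaders were. The TPI1 leader passed the filter on low counts through its DMSO libraries alone. The GPI leader reached it in all libraries of a group only with DMSO, and would not have passed on its rocaglate libraries. The lower levels of these leaders with a rocaglate were thus partly built into their being tested, and the count of 3 of 10 is not read as a result.

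TPI1, the triose phosphate isomerase, had 4.22, 0 and 5.1 leader CPM in silvestrol libraries and 10.8, 17 and 10.3 CPM in DMSO libraries, from 0 to 7 counts in silvestrol libraries and 9 to 16 in DMSO libraries. PFKP, a phosphofructokinase isoform at the committed step, had 6.63, 9.1 and 5.1 leader CPM in silvestrol libraries and 17.6, 25.5 and 34.3 CPM in DMSO libraries. GPI, which makes fructose 6-phosphate, had 19.3, 3.41 and 8.92 leader CPM in silvestrol libraries and 27.4, 27.6 and 22.9 CPM in DMSO libraries. All were low in counts, and edgeR called none of them (adjusted p = 0.711 for TPI1, 0.228 for PFKP and 0.706 for GPI).

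Leader levels of the remaining members overlapped between the groups. ALDOA had 219, 167 and 203 CPM in silvestrol libraries and 235, 176 and 153 CPM in DMSO libraries. PGK1, which makes the first ATP of the pathway, had 80.7, 38.7 and 58.6 CPM in silvestrol libraries and 81.2, 45.6 and 37.8 CPM in DMSO libraries. PKM had 94, 55.7 and 105.8 CPM in silvestrol libraries and 137, 132 and 68.7 CPM in DMSO libraries. The LDHA leader in DMSO cells rested on library 1, without which its log2 fold change was 0.49 and not -0.84, with 44.6, 20.5 and 28 CPM in silvestrol libraries and 122, 15.9 and 30.9 CPM in DMSO libraries. Across the 10 leaders the median of the log2 fold changes was -0.17, against 0.40 over all leaders. Without DMSO library 1 the median was 0.49, but the TPI1 leader, the lowest, then failed the filter and was left out of it.

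The coding sequences gave a more even picture. With silvestrol all 10 CDS had a fitted log2 fold change below 0, from -1.54 to -0.10 with a median of -0.72. Over all 8413 CDS the median was -0.12 and 41.2% lay above 0. Without overlap, 6 of 10 were lower in every silvestrol library than in every DMSO library (GPI, ALDOA, GAPDH, PGK1, PGAM1 and LDHA), against 8.64% of all CDS. Among CDS with at least 10 counts in every library, a filter chosen after seeing the data, it was 5 of 9 members against 10.6%. No single member CDS was called.

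The GAPDH CDS had 410.2, 266 and 359 CPM in silvestrol libraries and 629, 623 and 457 CPM in DMSO libraries. The PGK1 CDS had 104, 79.6 and 61.2 CPM in silvestrol libraries and 141, 142 and 123 CPM in DMSO libraries. The LDHA CDS had 50, 25 and 24.2 CPM in silvestrol libraries and 82.2, 59.4 and 66.4 CPM in DMSO libraries. In each of these the highest silvestrol library lay below the lowest DMSO library. Their log2 fold changes were -0.72 (SE 0.34) for GAPDH, -0.72 (SE 0.34) for PGK1 and -1.04 (SE 0.42) for LDHA, which edgeR did not call (adjusted p = 0.600 for GAPDH and 0.480 for LDHA). TPI1 had the CDS nearest to no difference, -0.10 (SE 0.37), which lay above 0 (0.02 to 0.15) in 4 of the fits that left out 1 library, with 193, 83 and 110 CPM in silvestrol libraries and 161, 152 and 102 CPM in DMSO libraries.

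The 3'UTRs resembled the CDS. Of 9 tested, 8 had a fitted log2 fold change below 0 with silvestrol, with a median of -0.64 against -0.26 over all 6712, and GAPDH alone lay above 0 (0.29, SE 0.49). Without overlap 4 of 9 were lower (GPI, ALDOA, ENO1 and LDHA), against 10.9% of all 3'UTRs. The ENO1 3'UTR had 81.9, 85.3 and 91.7 CPM in silvestrol libraries and 118, 104 and 148 CPM in DMSO libraries.

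With CR-1-31-B the direction of the CDS was much the same, while no member leader lay above all DMSO libraries in all 3 CR-1-31-B libraries. In same-numbered pairs of CR-1-31-B and DMSO libraries, the leaders of ENO1 and GAPDH were higher with CR-1-31-B in all 3, as were 33.3% of all leaders. Of the 29 member features edgeR called 0, with 2 at an unadjusted p under 0.05, against 0.315% of all mRNA features called and 0.8% of all leaders called higher. DESeq2 called 1 (1.36% of all features), limma voom 0 (0.251%) and edgeR with the replicate block 1 (1.48%). Leaders higher without overlap were 0 of 10, against 15.9% of all leaders, and 1 of 10, TPI1, was lower without overlap, against 2.81%. Here too the TPI1 leader was tested only through its DMSO counts. Without CR-1-31-B library 3, the leaders of ALDOA, GAPDH, PGAM1 and ENO1 were higher without overlap, 4 of 10 against 34.2% of all leaders, and TPI1 was lower, 1 of 10 against 5.1%. Within same-numbered pairs, a count also added after seeing the data, ENO1 and GAPDH were higher in all 3, 2 of 10 leaders against 33.3%, and TPI1 and LDHA were lower in all 3, 2 of 10 against 9.7%. Member leaders had a median log2 fold change of -0.05, against 0.35 over all leaders. The member median became 0.17 without CR-1-31-B library 3. It became 0.37 without DMSO library 1, where the TPI1 leader failed the filter and was left out.

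The ENO1 leader had 486, 297 and 200.5 CPM in CR-1-31-B libraries and 296, 186 and 159 CPM in DMSO libraries. CR-1-31-B library 3 was the lowest of its group and lay inside the DMSO range, and library 2 stood only just above DMSO library 1. The log2 fold change was 0.62 (SE 0.38). The GAPDH leader had 223, 161 and 132 CPM in CR-1-31-B libraries and 153, 118 and 105 CPM in DMSO libraries, again with library 3 inside the DMSO range, and a log2 fold change of 0.46 (SE 0.35). Without library 3 the values were 0.88 for ENO1 and 0.62 for GAPDH, still not called by edgeR. The TPI1 leader had 3.31, 0.865 and 9.27 CPM in CR-1-31-B libraries, all below the 10.3 CPM of the lowest DMSO library. PFKP had 21.8, 23.4 and 22 leader CPM in CR-1-31-B libraries and 17.6, 25.5 and 34.3 CPM in DMSO libraries, so that the groups overlapped.

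Of the 10 CDS, 9 had a fitted log2 fold change below 0 with CR-1-31-B, with a median of -0.55 (-0.47 without library 3) against -0.03 over all CDS. PGAM1, at 0.02 (SE 0.91) and with 2 to 21 counts a library, was the exception, and with upper-quartile factors it too lay below 0 (-0.04). Lower without overlap were 3 of 10 (ENO1, PGK1 and GPI), against 7.38% of all CDS. With at least 10 counts in every library it was 3 of 9 against 9.15%. Without CR-1-31-B library 3 it was 4 of 10, with LDHA added, against 12.6%. Within pairs, 7 of 10 CDS were lower in all 3, against 18% of all CDS, and with silvestrol it was 8 of 10 against 21.8%. The ENO1 CDS had 132, 89.1 and 103 CPM in CR-1-31-B libraries and 309, 160.3 and 276 CPM in DMSO libraries. Its log2 fold change of -1.20 (SE 0.37) was not called by edgeR (adjusted p = 0.207), was called with the replicate block (-1.16, adjusted p = 0.0218), and was at the threshold in DESeq2 (-1.19, adjusted p = 0.0496). Of the 3'UTRs, ENO1 and LDHA were lower without overlap, 2 of 9 against 9.59%, and against 28% without library 3.

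**Figure D2:**
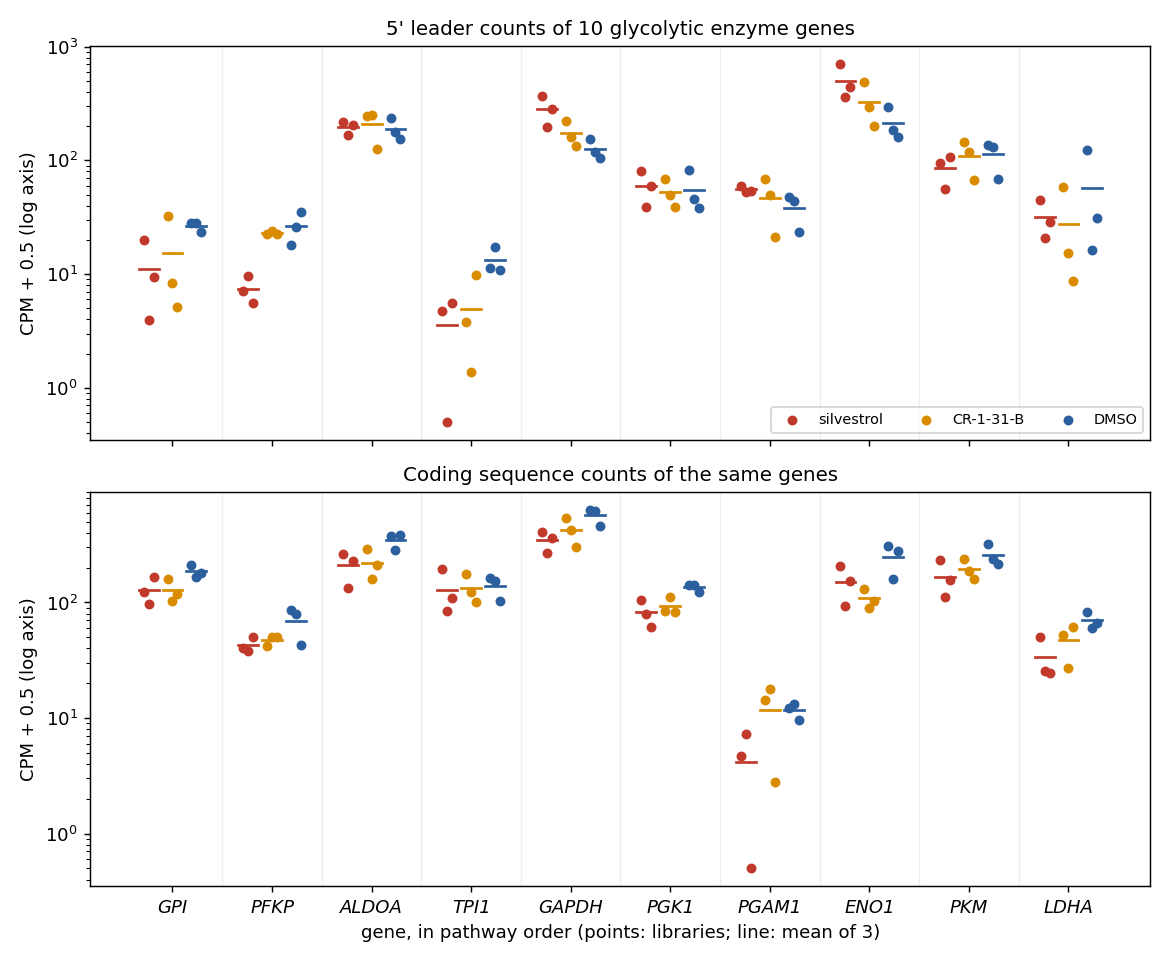
TMM-scaled CPM plus 0.5 (log axis) of the 5' leader (top) and CDS (bottom) of each gene in the silvestrol, CR-1-31-B and DMSO libraries, 1 point a library with the mean of 3 as a line. The leaders of ENO1 and GAPDH are highest with silvestrol, and the CDS of most genes are highest with DMSO.

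Pooling both compounds, edgeR called 0 of 29 member features (9 with an unadjusted p under 0.05), against 0.535% of all mRNA features and 1.39% of all leaders called higher. DESeq2 called 0, where it called 2.15% of all features, and limma voom 0, where it called 0.429%. With the replicate block, which called 2.04% of all features, the ENO1 leader (0.91, adjusted p = 0.0282) and the ENO1 CDS (-0.95, adjusted p = 0.0197) were called. Of the leaders 1 of 10, TPI1, was lower in all 6 rocaglate libraries than in every DMSO library, against 0.8% of all leaders. Of the CDS it was 2 of 10, GPI and PGK1, against 2.92%. Because the TPI1 leader passed the filter through its DMSO libraries alone, no conclusion is drawn from its place here. Without CR-1-31-B library 3 the leaders of ENO1, GAPDH and PGAM1 were higher without overlap, 3 of 10 against 14.3%, while TPI1 was lower (1 of 10 against 1.04%), and 3 of 10 CDS, GPI, PGK1 and LDHA, were lower against 3.98%.

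The contrast between parts of 1 gene is free of library depth and of the gene's total. It is not free of the shift into leaders seen over all mRNA counts. It is given first as the share, in percent, of a gene's leader, CDS and 3'UTR counts that fell in the leader. For ENO1 it was 71%, 66.9% and 64.4% in silvestrol libraries, 68.8%, 70.4% and 53.9% in CR-1-31-B libraries, 40.9%, 41.3% and 27.3% in DMSO libraries and 10.1% in the input. No rocaglate library reached down to a DMSO library. For GAPDH it was 42.2%, 39.8% and 38.6% in silvestrol libraries, 27%, 25.7% and 25.2% in CR-1-31-B libraries, 17.8%, 15.5% and 16.2% in DMSO libraries and 7.13% in the input. The 3 antibody groups did not overlap for GAPDH, with CR-1-31-B between silvestrol and DMSO. How many of all genes separate the 3 groups in this way was not counted, so the order is not read as particular to GAPDH. By the ratio of leader to CDS counts, 8.38% of all genes had every rocaglate library above every DMSO library.

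ENO1 counts ranged from 321 to 1651 per antibody library and GAPDH counts from 437 to 1449, so counting error was small: the 95% exact (Clopper-Pearson) interval of the GAPDH share ran from 35.2% to 44.6% in silvestrol library 2 and from 12.9% to 18.4% in DMSO library 2. Such intervals cover counting error only.

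TPI1 had the lowest shares together with GPI, 1.62%, 0% and 3.2% in silvestrol libraries, 1.32%, 0.521% and 5.67% in CR-1-31-B libraries, 4.37%, 7.62% and 5.66% in DMSO libraries and 4.14% in the input. In silvestrol library 2 the 0 counts allowed a share of up to 2.63% (3 counts of the gene's 114). PFKP had a lower share in every silvestrol library than in every CR-1-31-B library, with 14.3%, 16.7% and 9.09% in silvestrol libraries, 34.4%, 31.8% and 30.2% in CR-1-31-B libraries, 16.5%, 23.1% and 44.1% in DMSO libraries and 3.4% in the input. Silvestrol library 2 lay just above DMSO library 1, and the DMSO libraries spanned those of CR-1-31-B. How many of all genes separate the compounds from each other was not counted either. PGAM1 had 73.3%, 86.8% and 93.3% in silvestrol libraries, 70.3%, 69.5% and 62.1% in CR-1-31-B libraries and 62.3%, 67.2% and 43.5% in DMSO libraries. Its CDS held at most 21 counts in any antibody library.

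For the 10 genes together the leader held 42.4%, 41.6% and 40.1% of counts in silvestrol libraries, 37.1%, 36.4% and 26.7% in CR-1-31-B libraries, 26.5%, 24.5% and 20.2% in DMSO libraries and 6.3% in the input. ENO1 and GAPDH carried much of this. Without them, a split chosen after seeing the values, the shares were 27.7%, 30.4% and 30.1% in silvestrol libraries, 30.4%, 31.7% and 20.3% in CR-1-31-B libraries and 25.4%, 24.1% and 19.4% in DMSO libraries. CR-1-31-B library 3 lay just above the highest DMSO library with all 10 genes, and within the DMSO range without the pair.

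**Figure D3:**
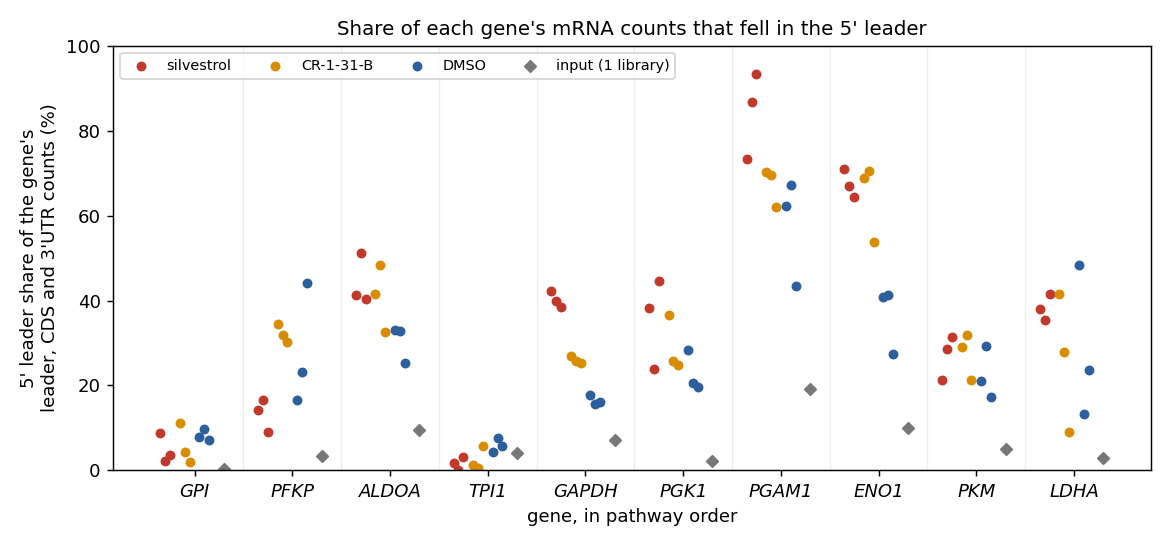
Share of each gene's leader, CDS and 3'UTR counts that fell in the 5' leader (percent), 1 point a library for silvestrol, CR-1-31-B and DMSO and a diamond for the single input library. ENO1 with both compounds and GAPDH with silvestrol lie well above DMSO, and all input shares of these genes lie below 20%.

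The difference between the leader's log2 fold change and that of the CDS of the same gene was tested in a paired edgeR fit over 5537 genes with both features. With silvestrol 2 of 10 members were called, both higher, where 1.03% of all genes were called higher: GAPDH at 1.88 (SE 0.31, adjusted p = 0.00251) and ENO1 at 1.96 (SE 0.37, adjusted p = 0.00821). With CR-1-31-B edgeR called ENO1, at 1.75 (SE 0.37, adjusted p = 0.0411), where 0.415% were called higher, while GAPDH at 0.90 (SE 0.31) was not called (adjusted p = 0.246; 0.85 and 0.232 without CR-1-31-B library 3). Over both compounds ENO1 (1.86, SE 0.32, adjusted p = 0.00429) and GAPDH (1.39, SE 0.27, adjusted p = 0.00928) were called, against 1.63% of genes. All 6 rocaglate libraries had a higher leader to CDS ratio than all 3 DMSO libraries for both genes, 2 of 10 against 8.38% of all genes. Without CR-1-31-B library 3 ALDOA joined them, 3 of 10 against 13.8%.

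Leaving out 1 library ended several of these calls. Without silvestrol library 1, the deepest, the edgeR adjusted p with silvestrol was 0.0526 for GAPDH and 0.0964 for ENO1, and without DMSO library 3 it was 0.0980 for ENO1. The ENO1 call with CR-1-31-B was lost in 7 of the 9 fits that left out 1 library, DMSO 1, 2 or 3, silvestrol 1 or 3 or CR-1-31-B 1 or 2, with values from 1.47 to 2.02 over all 9, and was kept without CR-1-31-B library 3 (2.02, adjusted p = 0.0141). Over both compounds GAPDH was lost without any 1 DMSO library (adjusted p from 0.0609 to 0.0696) and ENO1 without DMSO library 3 (0.0747). limma on the per-library log2 ratios gave nearly the same values and called none of them, as it called 0 of all 5537 genes in each contrast.

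The other members showed a spread of differences with wide intervals. With silvestrol PGAM1 had 2.22 (95% interval 0.43 to 4.02), PGK1 0.88 (-0.16 to 1.92), ALDOA 0.84 (0.03 to 1.66), LDHA 0.65 (-0.89 to 2.19) and PKM 0.28 (-0.56 to 1.11). Below 0 lay GPI at -0.79 (-2.07 to 0.49), PFKP at -1.17 (-2.62 to 0.27) and TPI1 at -1.96 (-3.59 to -0.34). None of these was called by edgeR, with adjusted p-values from 0.230 for PGAM1 to 0.816 for PKM. With CR-1-31-B TPI1 was again the lowest, at -1.59 (-3.14 to -0.04; -2.64 without CR-1-31-B library 3), and the other members apart from ENO1 and GAPDH lay between -0.49 for GPI and 0.78 for ALDOA. The ratio in every library was above all DMSO libraries for 4 of 10 genes with silvestrol (ENO1, GAPDH, PGAM1 and ALDOA, against 19.8% of all genes) and for 2 of 10 with CR-1-31-B (ENO1 and GAPDH, against 14.6%), or 4 of 10 without library 3 (with ALDOA and PKM, against 28.9%). It was below all DMSO libraries for 1 of 10 with silvestrol, TPI1, against 1.82%, and for 0 of 10 with CR-1-31-B, against 3.96%, or for TPI1 without library 3, against 5.87%. The low TPI1 ratio was partly built in, as its leader was tested only through its DMSO counts.

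Over the 10 genes the difference had a median of 0.75 for silvestrol and 0.40 for CR-1-31-B, against 0.55 and 0.37 over all 5537 genes. The list's medians lay near those of all genes, while its members ran from -1.96 for TPI1 to 2.22 for PGAM1 with silvestrol. The 70 ribosomal protein genes tested had medians of 0.31 with silvestrol and -0.05 with CR-1-31-B, and the 6 tubulin genes 1.04 and 0.33. In CDS level the members had the lowest median of these lists with silvestrol, -0.72, against -0.38 for ribosomal proteins and -0.48 for tubulins.

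**Figure D4:**
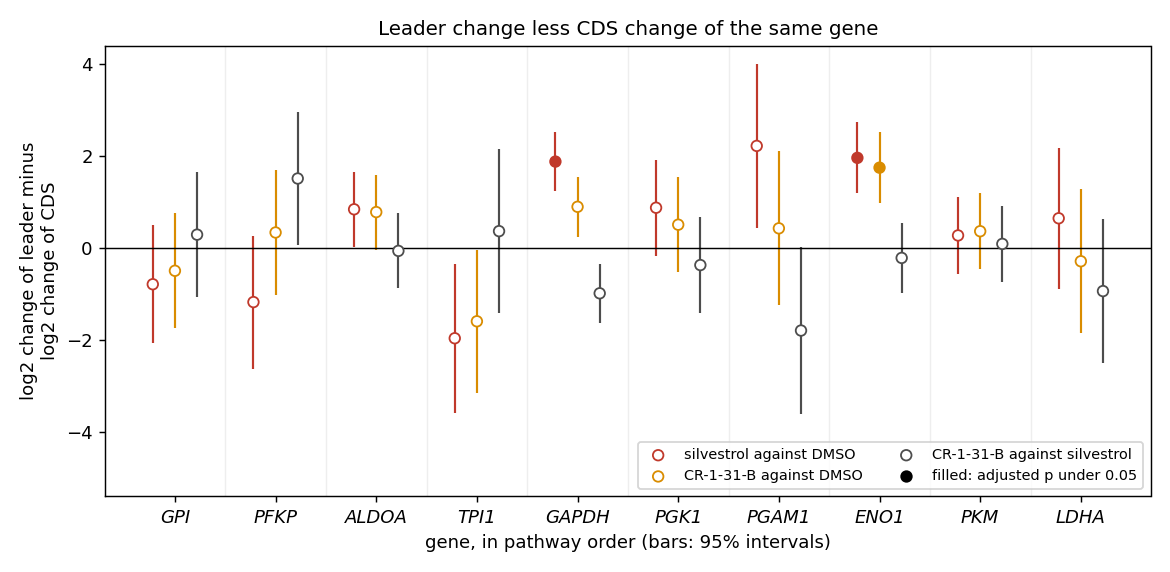
Difference between the log2 change of the leader and that of the CDS for each gene, with 95% intervals, for each compound set against DMSO and for CR-1-31-B set against silvestrol; filled points have an adjusted p under 0.05. ENO1 is filled for both compounds and GAPDH for silvestrol, and TPI1 lies below 0 for both.

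The compounds were compared with each other at the same dose and time, over 29 member features and 10 differences. CR-1-31-B against silvestrol gave 0 calls by edgeR among the features, with 2 at an unadjusted p under 0.05, where 0% of the 22247 features were called. It gave 0 calls among the differences, again with 2 at an unadjusted p under 0.05, where 0% of the 5537 genes were called. DESeq2 and limma voom called 0 of the features, and DESeq2 and limma 0 of the differences. The members under an unadjusted p of 0.05 were GAPDH and PFKP in both, and the gap of PGAM1 was wider but less certain.

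The GAPDH leader had a log2 fold change of -0.72 for CR-1-31-B against silvestrol (95% interval -1.44 to -0.0024) and its leader-minus-CDS difference was -0.98 (-1.63 to -0.34; edgeR, unadjusted p = 0.00433, adjusted p = 0.998). The PFKP leader had 1.67 (0.49 to 2.86; unadjusted p = 0.00780, adjusted p = 1.00 by edgeR) and a difference of 1.51 (0.08 to 2.95). For ENO1 the leader had -0.61 (-1.40 to 0.18) and the difference -0.21 (-0.98 to 0.55; 0.06 without CR-1-31-B library 3), an interval that leaves room for close to a 2-fold lower value with CR-1-31-B. For TPI1 it was 0.37 (-1.41 to 2.15), or -0.68 without that library. For ALDOA the difference was -0.06 (-0.88 to 0.75) and for PKM 0.09 (-0.74 to 0.92). PGAM1 had -1.79 (-3.60 to 0.01) and LDHA -0.94 (-2.50 to 0.63), with wider intervals.

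Around these enzymes, 47 other genes of glucose uptake, glycolysis and its outlets were all present in the files, with 22 leaders, 28 CDS and 20 differences tested. Of the 22 leaders edgeR called 1, that of SLC2A1, the glucose transporter GLUT1. Over all leaders, 0.8% were called higher with CR-1-31-B and 1.39% over both compounds. The SLC2A1 leader had 96.5, 60.5 and 85.7 CPM in CR-1-31-B libraries, 64.5, 9.1 and 61.2 CPM in silvestrol libraries and 11.7, 6.37 and 18.3 CPM in DMSO libraries. Its log2 fold change was 2.73 with CR-1-31-B (SE 0.57, adjusted p = 0.0392 by edgeR), 1.90 with silvestrol (SE 0.57, adjusted p = 0.206) and 2.32 over both (SE 0.53, adjusted p = 0.0485). Silvestrol library 2 stood within the DMSO range. The call with CR-1-31-B was lost when any 1 of the DMSO libraries, or library 1 or 2 of CR-1-31-B, was left out (edgeR adjusted p from 0.0778 to 0.168) and with limma voom (0.0854). The call over both compounds was kept only without silvestrol library 2 or CR-1-31-B library 3 among the fits that left out 1 library, and was lost with limma voom (0.176), upper-quartile factors (0.0548) and unscaled library totals (0.0504).

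One leader-minus-CDS difference of this list was called by edgeR, over both compounds, for PDHA1, a subunit of pyruvate dehydrogenase, at 2.16 (SE 0.52, adjusted p = 0.0350). That is 1 of 20, where 1.63% of all genes were called higher. The PDHA1 leader had 138, 80.8 and 40.8 CPM in silvestrol libraries, 74.1, 205 and 57.9 CPM in CR-1-31-B libraries and 43.1, 42.5 and 27.5 CPM in DMSO libraries. The PDHA1 CDS had 44, 20.5 and 19.1 CPM in silvestrol libraries, 32.4, 22.5 and 20.9 CPM in CR-1-31-B libraries and 48.9, 71.1 and 32.1 CPM in DMSO libraries. Leaving out 1 library kept that call only without CR-1-31-B library 3 (edgeR adjusted p from 0.0517 to 0.158 in the other fits), and limma on log2 ratios, which called no gene, did not make it. No CDS of the list was called in either direction. The list's median leader log2 fold changes were 0.27 with silvestrol and 0.20 with CR-1-31-B, against 0.40 and 0.35 over all leaders. Its median differences were 0.82 and 0.22, against 0.55 and 0.37 over all genes.

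Counts of members with near-identical copies are uncertain. The pseudogene TPI1P2 had 25 counts over all libraries, TPI1P3 20 and PGAM1P5 9, and how reads shared with processed pseudogenes of GAPDH, ENO1, PKM and others were counted is not given in the sources used here. In GENCODE release 29 exons of other genes overlapped the chosen transcripts of ALDOA, GAPDH and PFKP, and the use of strand in counting is not given either.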

How the data were processed

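The deposited values are read counts per gene symbol in 7 classes, 1 file per library, per the file headers. The submitters' processing notes list cutadapt, a read trimmer, and Bowtie 1.1, an aligner. Genome build, annotation, duplicate handling, strand and the counting rule are not given in the sources used here. One line per file that held no gene and no count was left out. The 9 antibody libraries were fitted with edgeR 4.0.16 (R 4.3.3): filterByExpr by group, TMM factors, quasi-likelihood tests and Benjamini-Hochberg adjustment over all features. The leader-minus-CDS fit held 18 columns with a term for each library. Leader to CDS ratios had 0.5 added to each count. DESeq2 1.42.0, limma 3.58.1, other scalings and filters, a replicate block and leaving out each library were alternatives. Methods were tested on simulated data. Same-numbered libraries deviated together (correlations 0.102 to 0.263 over 9 pairs, against -0.203 to 0.0163 over 18 other pairs). The main fit leaves this pairing out, and the replicate block takes it in. The pairing comes from the data, and the labels do not explain it. The values reported are from the fit without the block, and the blocked fit is given beside them where it changes a call. Libraries of a group differed beyond sampling noise (chi-square per degree of freedom 4.66 to 10.4). The members, the other gene lists and the genes named (all members, and others if called) were chosen with earlier results of these data known. Sequences are from GENCODE release 29.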

Additional observations from a re-analysis of the deposited data

Results flagged for a closer look

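The PFKP leader to CDS ratio was on opposite sides of the DMSO mean with the compounds. Every CR-1-31-B library lay above it, by 0.33 on average (log2), and every silvestrol library below it, by -1.16. The DMSO libraries ran from -2.26 to -0.30 and spanned every CR-1-31-B library (-1.16 to -0.92) and silvestrol library 2 (-1.98). Against DMSO edgeR called neither difference (adjusted p = 0.890 with CR-1-31-B and 0.472 with silvestrol). How many of all genes show such a pattern was not counted. The test of the difference itself, CR-1-31-B against silvestrol, gave 1.51 (SE 0.69) and was not called by edgeR (unadjusted p = 0.0397, adjusted p = 0.998). The PFKP leader held 4 to 11 counts in silvestrol libraries, 19 to 33 in CR-1-31-B libraries and 18 to 30 in DMSO libraries. Groups of 3 were too small for the check of single outlying libraries.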

How the results depend on the processing

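DESeq2 called 2 member features with silvestrol and 1 with CR-1-31-B, where edgeR called 0. With the replicate block, which takes same-numbered libraries as pairs, edgeR called 2 with silvestrol, 1 with CR-1-31-B and 2 over both compounds. Those were the leaders of ENO1 and GAPDH with silvestrol, the ENO1 CDS with CR-1-31-B and both ENO1 features over both compounds, and the block changed no other call of a member. limma on log2 ratios called 0 leader-minus-CDS differences in each contrast with DMSO, with 0.5 or 5 added, where edgeR called 2, 1 and 2. Over all 5537 genes limma called 0 in each of them with 0.5 added, and 5, 0 and 21 with 5 added. Leaving out 1 library gave 0 to 2 such calls with silvestrol, 0 to 1 with CR-1-31-B and 0 to 2 over both. The median leader log2 fold change with silvestrol ran from -0.36 to 0.49 over those fits, not all of which tested the TPI1 leader. The cause was not tested. Over all features, the block and DESeq2 called many more: 316 and 308 with silvestrol, 365 and 335 with CR-1-31-B, and 505 and 531 over both compounds, where edgeR without the block called 63, 72 and 121. With no filter on low counts edgeR called 215 and 225. Of leader-minus-CDS differences over all genes, edgeR called 57 with silvestrol, 24 with CR-1-31-B and 92 over both, with the block 105, 46 and 151, and DESeq2 183, 101 and 268. Of 70 refits of the called differences, 46 kept the call, 24 lost it and 0 turned the direction. Of 2596 refits of uncalled member values, 104 changed sign and 43 moved by more than 1 SE. The count of leaders above input ranged from 3 to 5. Low counts limit what can be seen in the leaders of TPI1, GPI and PFKP and the CDS of PGAM1.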
